A study of Homo sapiens with 12 samples.

Results

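Polycomb repressive complex 2 (PRC2) and the DNA methylation machinery are the main writers of heritable gene silencing, and their mRNAs were followed here in prostate cancer cells depleted of the centromeric histone H3 variant CENPA. The genes were taken by symbol from the expression table and comprise 10 of its 14828 genes, namely the PRC2 genes EZH2, EZH1, SUZ12, EED and JARID2 and the DNA methylation genes DNMT1, UHRF1, HELLS, DNMT3A and DNMT3B. With both CENPA-targeted shRNAs, HELLS, UHRF1, EZH2 and DNMT1 fell, and DNMT3B fell with shCENPA2 and missed the threshold with shCENPA1. HELLS mRNA fell by 55.4% with shCENPA1 and fell by 64.0% with shCENPA2. EZH2 mRNA fell by 39.7% in cells with shCENPA1 and fell by 39.9% in cells with shCENPA2. SUZ12, EED, EZH1, JARID2 and DNMT3A did not pass the test with either shRNA, and none of the 10 genes was called higher.

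The cells were 22Rv1, an established human prostate carcinoma line, made to carry a lentiviral pTRIPZ Tet-On vector and selected with puromycin. One line held a nontargeting shRNA (shNT), and the others held 1 of 2 shRNAs against CENPA, shCENPA1 or shCENPA2. All 3 groups, the control included, received doxycycline at 2 µg/ml for 72 h, so an effect of doxycycline on its own is in every sample. Poly(A) RNA was sequenced with a stranded kit from 2 libraries per shRNA, each read in lanes 7 and 8. No clonal selection is described for these lines, and the work rests on 1 line of cells.

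PRC2 places methyl groups on lysine 27 of histone H3, a mark of silenced genes. EZH2 or its paralog EZH1 is the catalytic subunit, SUZ12 and EED are the core subunits that make the enzyme active, and JARID2 is an accessory subunit. DNA methylation is set by the de novo enzymes DNMT3A and DNMT3B and is copied to the new strand after replication by DNMT1, which UHRF1 brings to hemimethylated CpG sites, while the nucleosome remodeler HELLS opens heterochromatin to these enzymes. High EZH2 is a long-known feature of advanced prostate cancer, and EZH2, DNMT1, UHRF1 and HELLS are known to be expressed most in dividing cells.

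E2F factors switch on many genes at the start of DNA replication, so the promoters of the 10 genes were searched for E2F-type letters. The sequences are from RefSeq (GRCh38.p14) and span 250 bases before to 50 bases after each annotated start, with 19 such windows for the 10 genes. The letters searched were TTTCCCGC, TTTCGCGC, TTTGCCGC and TTTGGCGC on both strands, and no matches overlapped. At least 1 match lay in a promoter of 6 of the 10 genes, against 6.49% of the 10284 genes of the table that have such a promoter and 3.99% of 27305 RefSeq genes. Stretches of 30 bases around each match are shown 5′ to 3′ on the strand of the gene, with the matching letters in capitals, since they set side by side genes that fell and genes that did not pass the test.
EZH2: gggctgccgcgTTTGGCGCtcggtccggtc
HELLS, upstream match: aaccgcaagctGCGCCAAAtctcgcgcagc
HELLS, match next to the start: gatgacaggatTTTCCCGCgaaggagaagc
UHRF1, match next to a start: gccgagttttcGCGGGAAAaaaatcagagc
UHRF1, match at a later start: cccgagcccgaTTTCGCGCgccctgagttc
DNMT1: catcggtttccGCGCGAAAagccggggcgc
SUZ12: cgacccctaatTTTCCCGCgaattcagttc
EZH1: gcggggttttgGCGGCAAAtgacagtagtg

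The EZH2 stretch is chr7:148884272-148884301 on the minus strand, and its match covers bases 1 to 8, counted from the start base as 0. The HELLS stretches are chr10:94545701-94545730 and chr10:94545769-94545798 on the plus strand, with matches at -76 to -69 and -8 to -1. Those of UHRF1 are chr19:4909476-4909505 and chr19:4909973-4910002 on the plus strand, with matches at -14 to -7 and -160 to -153 of different annotated starts. The DNMT1 stretch, chr19:10194937-10194966 on the minus strand, holds its match at -2 to 5, across the RefSeq start.
The SUZ12 stretch is chr17:31936807-31936836 on the plus strand with a match at -189 to -182, and the EZH1 stretch is chr17:42745137-42745166 on the minus strand with a match at -115 to -108. All 4 genes that fell with both shRNAs thus held a match, as did SUZ12 and EZH1, which did not pass the test. DNMT3B, EED, JARID2 and DNMT3A held none in these windows. The only windows of DNMT3B (chr20:32779602-32779901) and EED (chr11:86244503-86244802) lie inside the genes. Sequence around the first base of DNMT3B or EED was not searched, so whether a match lies there was not tested. A match is a run of letters and not a measured binding site, and its part in the changes was not tested.
For comparison, 8 of 13 genes of replication origin licensing held an E2F-type match and 0 of 19 genes of PRC1, the other Polycomb complex. The letters TTTGAA, the core of the element that many mitotic genes share, were found for DNMT3A and SUZ12 only among the 10 genes, against 13.5% of the genes of the table and 8 of 12 genes of mitosis. The DNMT3B window, which lies inside the gene, held 3 CpG sites and the other windows 16 to 46. CpG sites and the letters TTTGAA around the first GENCODE base of DNMT3B, EED, DNMT1, HELLS or UHRF1 were not counted.

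The files gave 79172294 to 133074655 reads on genes per library. The values are log2 RPKM, the logarithm of a gene's reads per unit of its length and of sequencing depth, so that levels can be compared between genes. The sample labels count 4 replicates per shRNA, but these are the 2 lanes of 2 libraries. The chi-square per gene, which is 1 for sampling noise alone, was 1.23 to 1.31 between lanes of a library and 26.5 to 80.0 between libraries of a group, so lanes were averaged and n = 2 libraries. The labels do not say whether the libraries came from separate cultures, and p-values measure only the spread between these libraries.
CENPA itself was at log2 RPKM 2.46 and 2.18 for shNT, 0.50 and 0.58 for shCENPA1, and -0.47 and -0.41 for shCENPA2. The knockdown passed the test with both shRNAs (log2 fold change -1.78 and -2.76, with Benjamini-Hochberg adjusted p = 0.000287 and 1.13e-05 by limma). Prostate and epithelial markers were measured at high levels, with HOXB13 at a mean log2 RPKM of 7.84 and KRT18 at 6.81 in shNT cells. Of 11 markers of fibroblasts, leukocytes, endothelium and basal cells, only COL1A1 and DCN were analysed here, and DCN rose from 119 to 186 reads with shNT to 351 to 647 reads in the knockdown libraries, at most 0.484 RPKM. The part of such cells in the results was not tested.

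A gene was called where limma gave an adjusted p under 0.05 over 14624 genes, those whose mean log2 RPKM reached -3. All 10 genes were among them. With shCENPA1, 4 of the 10 genes were called lower, where 4.45% of all genes tested were, and 0 were called higher, where 2.69% were. At an unadjusted p under 0.05 limma had 5 lower, DNMT3B being the addition, against 11.4% of all genes, and 0 higher against 10.7%. With shCENPA2, 5 of the 10 were called lower against 10.5% of all genes, and 0 higher against 8.05%, although JARID2 was higher at an unadjusted p under 0.05, as 15.3% of all genes were. A fit with voom on reads recovered from the values gave the same counts in both comparisons. A fall of more than 1 on the log2 scale was called for UHRF1 and HELLS in each comparison, 2 of 10 genes, against 1.83% of all genes with shCENPA1 and 4.45% with shCENPA2. For the 10 genes the median log2 fold changes were -0.35 for shCENPA1 and -0.43 for shCENPA2, where all genes tested had medians of 0.00 and 0.01. Both comparisons use the same shNT libraries. The smallest two-sided p of an exact permutation test with 2 libraries against 2 is 0.33, and the calls therefore depend on limma's pooling of the spread over genes.

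**Figure D1:**
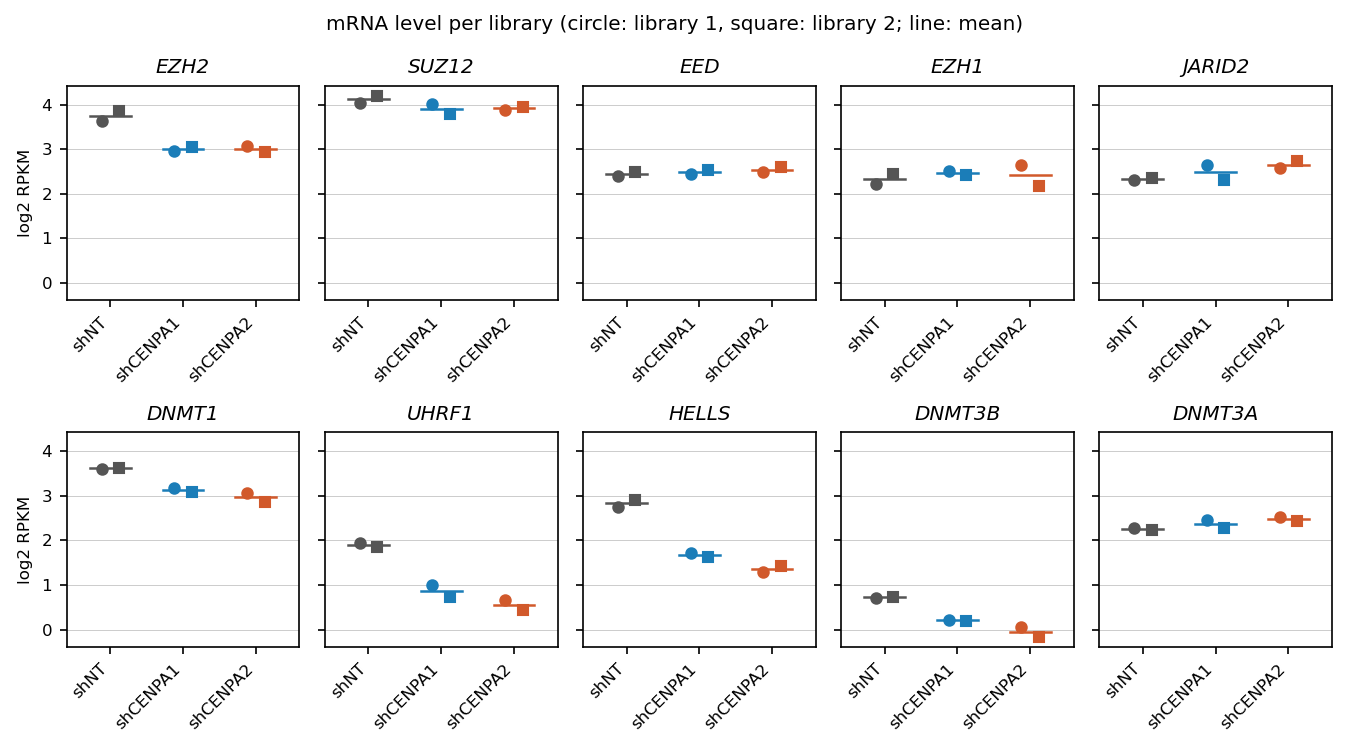
mRNA level of the 10 genes in each library, as log2 RPKM on the vertical axis, for shNT (grey), shCENPA1 (blue) and shCENPA2 (orange). Circles are library 1, squares are library 2 and lines are group means. The 4 knockdown libraries lie below both shNT libraries for EZH2, SUZ12 (by as little as 0.02), DNMT1, UHRF1, HELLS and DNMT3B. For DNMT3A they lie above both, by as little as 0.01. The share of all genes that separate in these ways was not counted, so no conclusion is drawn from the separation.

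EZH2, the catalytic subunit of PRC2 in dividing cells, lies on chromosome 7 from 148807257 to 148884321 (GRCh38, minus strand). The EZH2 level was log2 RPKM 3.62 and 3.85 in shNT cells, 2.97 and 3.05 in shCENPA1 cells, and 3.06 and 2.95 in shCENPA2 cells. The knockdown libraries of both shRNAs lay together, at least 0.56 below the lower shNT library on this scale. By limma the log2 fold change was -0.73 for each shRNA, with a standard error of 0.11 and adjusted p = 0.00408 for shCENPA1 and 0.00183 for shCENPA2. Without library 2 of shNT, the higher one, the change with shCENPA1 was -0.61 and no longer passed (limma adjusted p = 0.0579). Where a library was left out, the lone library of that group was assumed to vary like those of the other groups.

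EZH1, the paralog that can take the place of EZH2 and is known from nondividing cells, lies on chromosome 17 from 42700275 to 42745049. EZH1 was at log2 RPKM 2.21 and 2.44 with shNT, 2.50 and 2.43 with shCENPA1, and 2.65 and 2.18 with shCENPA2. The groups overlapped, and the libraries with shCENPA2 were the farthest apart. Its log2 fold change was 0.14 (95% interval -0.22 to 0.51) for shCENPA1 and 0.09 (-0.28 to 0.46) for shCENPA2.
Within each library, EZH2 mRNA stood above EZH1 mRNA by a factor of 2.66 and 2.67 with shNT. The factor was 1.38 and 1.54 with shCENPA1 and 1.33 and 1.71 with shCENPA2, so that the shNT and knockdown libraries did not overlap. EZH2 was the more abundant of the pair in all 6 libraries.

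SUZ12, a core subunit needed for PRC2 activity, lies on chromosome 17 from 31937007 to 32001038 and had the highest level of the 10 genes in all 3 groups. The libraries gave a log2 RPKM of 4.03 and 4.20 with shNT, 4.01 and 3.80 with shCENPA1, and 3.87 and 3.95 with shCENPA2. All 4 knockdown libraries lay below both shNT libraries, but by as little as 0.02. SUZ12 had a log2 fold change of -0.21 (95% interval -0.45 to 0.03, limma adjusted p = 0.294) for shCENPA1 and -0.20 (-0.44 to 0.04, adjusted p = 0.233) for shCENPA2. The pseudogene SUZ12P1 on the same chromosome, looked up after the values were seen, is also in the table at 918 to 1810 reads per library, and reads may be divided between the copies.

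EED, the subunit that binds the finished mark, lies on chromosome 11 from 86201212 to 86278813. EED mRNA was at log2 RPKM 2.39 and 2.49 with shNT, 2.45 and 2.52 with shCENPA1, and 2.49 and 2.59 with shCENPA2. The 6 libraries spanned 0.20 on this scale, the narrowest range of the 10 genes. Against shNT the log2 fold change was 0.05 (95% interval -0.20 to 0.30) for shCENPA1 and 0.10 (-0.14 to 0.35) for shCENPA2, so for EED a fall of the size seen for EZH2 lies outside both intervals. An exon of a long noncoding RNA without a symbol, not analysed here, overlaps EED by 221 bases on the opposite strand.

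JARID2, an accessory subunit that helps PRC2 to bind chromatin, lies on chromosome 6 from 15246069 to 15522042. JARID2 was measured at log2 RPKM 2.31 and 2.37 with shNT, 2.64 and 2.32 with shCENPA1, and 2.58 and 2.73 with shCENPA2. The libraries with shCENPA2 were above both shNT libraries, and 1 of the 2 with shCENPA1 was. Its log2 fold change was 0.14 (95% interval -0.16 to 0.44) for shCENPA1 and 0.32 (0.02 to 0.62) for shCENPA2, and the latter had an adjusted p of 0.135 by limma.
The ratio of EZH2 to its core partners was lower in every knockdown library than in both shNT libraries. EZH2 over EED was 2.35 and 2.58 with shNT, 1.43 and 1.44 with shCENPA1, and 1.49 and 1.28 with shCENPA2. EZH2 over SUZ12 was 0.754 and 0.788 with shNT and 0.485 to 0.597 in the knockdown libraries.

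DNMT1, the enzyme that maintains CpG methylation, lies on chromosome 19 from 10133342 to 10231286. DNMT1 was at log2 RPKM 3.61 in both shNT libraries, at 3.17 and 3.09 for shCENPA1, and at 3.06 and 2.86 for shCENPA2. All 4 knockdown libraries were below both shNT libraries, and those with shCENPA2 were below those with shCENPA1. DNMT1 mRNA fell by 28.3% in shCENPA1 cells, a log2 fold change of -0.48 (standard error 0.11, limma adjusted p = 0.0247). In shCENPA2 cells it fell by 36.3%, a log2 fold change of -0.65 (standard error 0.11, limma adjusted p = 0.00257). The call with shCENPA1 was the least firm of the 4: it was lost without library 1 or 2 of shNT (limma adjusted p = 0.157 and 0.207), without library 1 or 2 of shCENPA1 (0.0718 and 0.145) and without a trend in the variance (0.0702). The log2 fold change was then -0.48 without either library of shNT, -0.52 and -0.44 without library 1 or 2 of shCENPA1, and -0.48 without the trend. An exon of S1PR2 overlaps DNMT1 by 83 bases on the same strand, and S1PR2 had 115 to 273 reads per library where DNMT1 had 6773 to 12921.

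UHRF1, the reader of hemimethylated DNA, lies on chromosome 19 from 4903080 to 4962154. The level of UHRF1 was log2 RPKM 1.95 and 1.86 with shNT, 1.00 and 0.73 with shCENPA1, and 0.66 and 0.43 with shCENPA2. The groups did not overlap, and UHRF1 was lowest with shCENPA2. UHRF1 mRNA fell by 51.4% in shCENPA1 cells, a log2 fold change of -1.04 (standard error 0.16, limma adjusted p = 0.00441). With shCENPA2 it fell by 60.9%, a log2 fold change of -1.36 (standard error 0.16, limma adjusted p = 0.000461). Without library 2 of shCENPA1 the change with that shRNA was -0.90 and missed the threshold (limma adjusted p = 0.0560).
UHRF2, the paralog of UHRF1, was at log2 RPKM 2.12 and 2.19 with shNT and 1.99 to 2.07 in the knockdown libraries, and did not pass the test. UHRF1 over UHRF2 was 0.885 and 0.793 with shNT, 0.476 and 0.417 with shCENPA1, and 0.393 and 0.328 with shCENPA2. DNMT1 over UHRF1 moved the other way, from 3.16 and 3.38 with shNT to 4.50 to 5.37 in the knockdown libraries.

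HELLS, the remodeler of heterochromatin, lies on chromosome 10 from 94545329 to 94613905 and had the largest fall of the 10 genes with each shRNA. HELLS mRNA stood at log2 RPKM 2.75 and 2.91 with shNT, 1.72 and 1.62 with shCENPA1, and 1.29 and 1.43 with shCENPA2. The 3 groups did not overlap, and all 4 knockdown libraries were more than 1 below the lower shNT library. Its log2 fold change by limma was -1.16 (standard error 0.13, adjusted p = 0.000696) for shCENPA1 and -1.48 (standard error 0.13, adjusted p = 6.88e-05) for shCENPA2. HELLS had 2047 to 7413 reads per library, and among the 10 genes it went from the 4th highest mean level with shNT to the 8th with either CENPA-targeted shRNA. Another unnamed long noncoding RNA, not analysed here, overlaps HELLS by 438 bases of exon on the same strand.
CDCA7, the zinc finger partner that HELLS needs for its activity, was at log2 RPKM 1.86 and 2.08 with shNT, 0.86 and 0.74 with shCENPA1, and 0.40 and -0.79 with shCENPA2, and is named after its values were seen. It fell by 2.17 on the log2 scale with shCENPA2 (limma adjusted p = 0.00155), while its change with shCENPA1 was -1.17 (adjusted p = 0.0601). HELLS over CDCA7 lay between 1.77 and 1.86 in 5 libraries and was 4.67 in library 2 of shCENPA2, the library in which CDCA7 was lowest.

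DNMT3B, a de novo methyltransferase, lies on chromosome 20 from 32762385 to 32809359 and had the lowest level of the 10 genes, with 398 to 817 reads per library. DNMT3B was found at log2 RPKM 0.71 and 0.74 with shNT, 0.21 and 0.20 with shCENPA1, and 0.06 and -0.16 with shCENPA2. The 3 groups did not overlap. Its log2 fold change was -0.52 for shCENPA1 (standard error 0.17), which missed the threshold (limma adjusted p = 0.112), and -0.78 for shCENPA2 (standard error 0.17), which passed (adjusted p = 0.0124). The call with shCENPA2 was lost without library 1 or library 2 of shNT (limma adjusted p = 0.0888 and 0.113), with log2 fold changes of -0.79 and -0.76 that rest on a single shNT library.

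DNMT3A, the other de novo enzyme, lies on chromosome 2 from 25227855 to 25342590. The DNMT3A level was log2 RPKM 2.27 and 2.24 with shNT, 2.45 and 2.28 with shCENPA1, and 2.52 and 2.43 with shCENPA2. All 4 knockdown libraries were above both shNT libraries, by as little as 0.01. Its log2 fold change was 0.11 (95% interval -0.15 to 0.37) for shCENPA1 and 0.22 (-0.04 to 0.48) for shCENPA2, neither of which passed the test.
Ratios to DNMT3A, the de novo enzyme with the higher level, were lower in every knockdown library than in both shNT libraries. DNMT1 over DNMT3A was 2.52 and 2.59 with shNT, 1.64 and 1.75 with shCENPA1, and 1.45 and 1.35 with shCENPA2. DNMT3B over DNMT3A was 0.337 and 0.354 with shNT, 0.211 and 0.236 with shCENPA1, and 0.181 and 0.166 with shCENPA2.

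**Figure D2:**
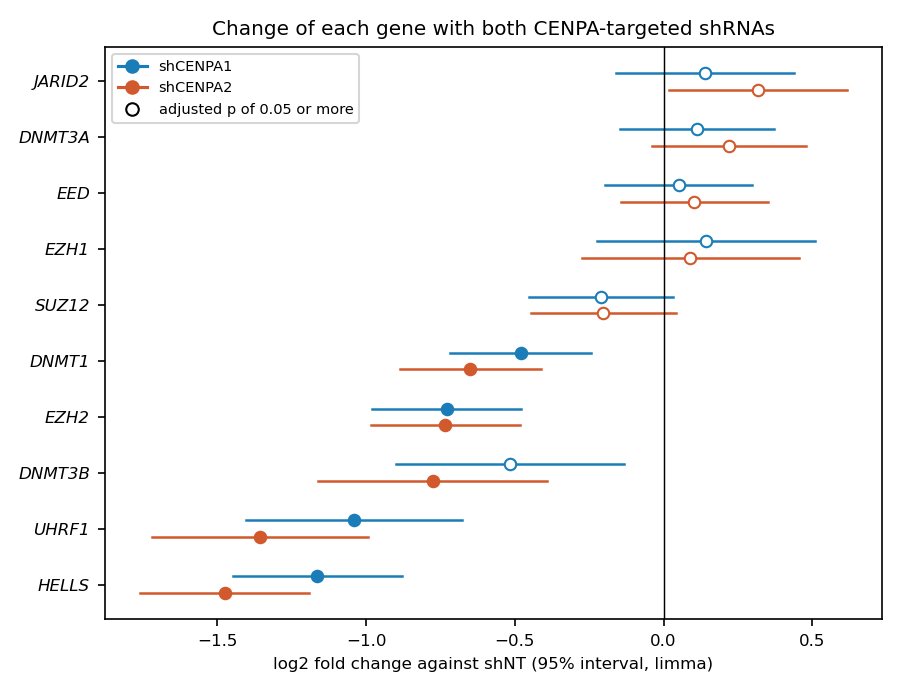
Log2 fold change of each gene against shNT on the horizontal axis, with 95% intervals from limma, for shCENPA1 (blue) and shCENPA2 (orange). Filled points passed an adjusted p of 0.05 and open points did not. HELLS, UHRF1, EZH2 and DNMT1 are filled for both shRNAs, DNMT3B for shCENPA2, and the intervals of the other 5 genes reach 0 or come close to it.

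Between the CENPA-targeted shRNAs, 0 of the 10 genes were called by limma, where 1.42% of all genes were, although CENPA itself was lower with shCENPA2 by 0.98 on the log2 scale (limma adjusted p = 0.0209). At an unadjusted p under 0.05 HELLS alone was past the threshold, as 13.3% of all genes were in either direction, with a log2 difference of -0.31 (shCENPA2 minus shCENPA1, 95% interval -0.60 to -0.03, adjusted p = 0.328). For UHRF1 the difference was -0.32 (-0.68 to 0.05), for DNMT3B -0.26 (-0.64 to 0.12) and for DNMT1 -0.17 (-0.41 to 0.07), all with lower values for shCENPA2. The difference for EZH2 was -0.01 (-0.26 to 0.24). A fit with voom on recovered reads called 0 of the 10 genes as well.

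In shNT cells the order of mean levels was SUZ12 (log2 RPKM 4.11), EZH2 (3.74), DNMT1 (3.61), HELLS (2.83), EED (2.44), JARID2 (2.34), EZH1 (2.32), DNMT3A (2.26), UHRF1 (1.90) and DNMT3B (0.72). The libraries of JARID2 and EZH1 overlapped, as did those of EZH1 and DNMT3A, and the other neighbours did not overlap. SUZ12 was above 81.6% of the genes of the table and DNMT3B above 26.0%. With shCENPA1 DNMT1 passed EZH2, at 3.13 against 3.01, whereas with shCENPA2 the means of EZH2 and DNMT1 were 3.00 and 2.96.

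The other genes of these pathways were described by lists, written from general knowledge with earlier results of these data known. Of 9 measured PRC2 partners and H3K27 demethylases, PHF19 fell with each shRNA and no other was called, 1 of 9 against 4.45% of all genes called lower with shCENPA1 and 10.5% with shCENPA2. PHF19, a Polycomb-like subunit that guides PRC2 to its targets, was at log2 RPKM 0.71 and 0.80 with shNT, -0.09 and -0.06 with shCENPA1, and -0.56 and -0.99 with shCENPA2. PHF19 had log2 fold changes of -0.83 and -1.53, with limma adjusted p = 0.0385 and 0.000820. The histone-binding core subunits RBBP4 and RBBP7 had log2 fold changes of -0.22 and -0.16 with shCENPA1 and -0.20 and -0.25 with shCENPA2, and did not pass the test.
The median log2 fold change of the PRC2 partners was -0.16 with shCENPA1 and -0.09 with shCENPA2. EPOP and EZHIP were not analysed here.

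PRC1 binds the PRC2 mark and adds ubiquitin to histone H2A. Of its 22 genes, 0 were called by limma with shCENPA1, where 4.45% of all genes were called lower and 2.69% higher. RING1 (higher) and SCML2 (lower) had an unadjusted p under 0.05 with shCENPA1, as 22.0% of all genes had in either direction. With shCENPA2 PCGF6 and SCML2 were called lower, 2 of 22 against 10.5% of all genes. In shCENPA2 cells PCGF6 had a log2 fold change of -0.70 and SCML2 of -0.37 (limma adjusted p = 0.00293 and 0.0385), both named after their values were seen. The median of the PRC1 genes was -0.01 with shCENPA1 and 0.00 with shCENPA2. The catalytic subunit RNF2 had log2 fold changes of 0.01 and -0.10, and BMI1 of 0.08 and -0.16.

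Among 10 measured partners of DNA methylation, 2 were called lower with shCENPA1 and 4 with shCENPA2, against 4.45% and 10.5% of all genes. None was called higher, where 2.69% and 8.05% of all genes were. PCNA, the replication clamp that holds DNMT1 at the fork, was at 154 and 155 RPKM with shNT, 76.1 and 90.5 with shCENPA1, and 62.3 and 67.4 with shCENPA2. PCNA had log2 fold changes of -0.89 and -1.25 (limma adjusted p = 0.00103 and 6.56e-05). LIG1, the replicative ligase that UHRF1 binds, had log2 fold changes of -0.96 and -1.26 (limma adjusted p = 0.00236 and 0.000238). With shCENPA2 CDCA7 and its paralog CDCA7L were the others called lower, the latter at -1.19 (limma adjusted p = 0.00441).
USP7, a deubiquitinase of DNMT1 and UHRF1, had log2 fold changes of -0.09 and -0.06, and the H3K36 methyltransferases NSD1, NSD2 and SETD2 did not pass the test. DNMT3L was not analysed here.

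Of 11 genes that oxidize, remove or read 5-methylcytosine, limma called 0 with shCENPA1, where 4.45% of all genes were called lower and 2.69% higher. At an unadjusted p under 0.05 there were also 0 with shCENPA1, against 22.0% of all genes in either direction. With shCENPA2 TET1 was called lower, 1 of 11 against 10.5% of all genes. TET1 had log2 fold changes of -0.63 and -1.12 (limma adjusted p = 0.289 and 0.0384), on 292 to 646 reads per library. TET2 and TET3 had changes of -0.20 and -0.27 with shCENPA1 and 0.13 and 0.01 with shCENPA2, and did not pass.
Among 11 genes of H3K9 heterochromatin, 1 was called lower with shCENPA1 and 4 with shCENPA2, against 4.45% and 10.5% of all genes. CBX5, which encodes HP1 alpha, was at log2 RPKM 5.02 and 5.06 with shNT, 4.72 and 4.32 with shCENPA1, and 4.58 and 4.65 with shCENPA2. CBX5 had log2 fold changes of -0.52 and -0.42 (limma adjusted p = 0.0371 and 0.0428). The others with shCENPA2 were SUV39H1 (-0.92), SUV39H2 (-0.53) and CBX3 (-0.45).

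**Figure D3:**
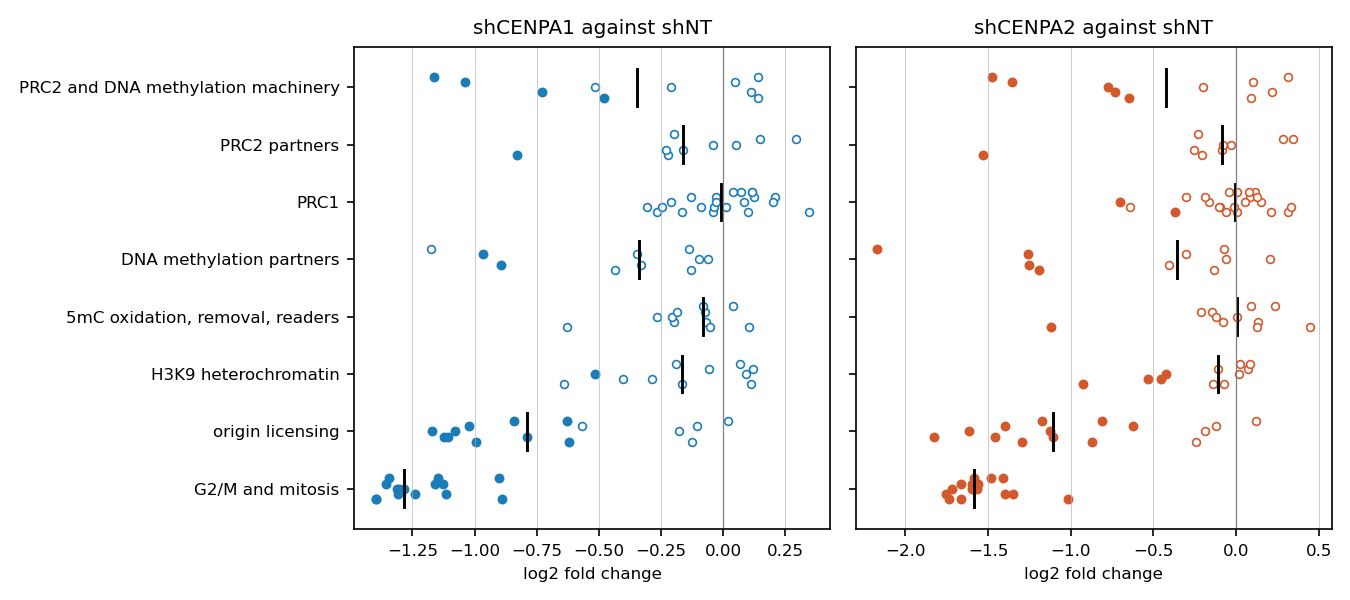
Log2 fold change against shNT of every tested gene of 8 lists (points, 1 gene each), with shCENPA1 on the left and shCENPA2 on the right, whose horizontal axes differ in range. Filled points passed an adjusted p of 0.05 and black bars are list medians. Among the chromatin lists a few filled genes lie apart from a larger group near 0, and the genes of mitosis are filled throughout.

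Genes of DNA replication and mitosis were lower in the same libraries. Of 15 genes of origin licensing, 10 were called lower with shCENPA1 and 11 with shCENPA2, against 4.45% and 10.5% of all genes, with medians of -0.79 and -1.11. The 4 with the firmest calls were CDC6 (log2 fold change -1.17 with shCENPA1 and -1.62 with shCENPA2), MCM4 (-1.08 and -1.12), MCM2 (-0.995 and -1.30) and MCM3 (-0.79 and -1.11). All 15 genes of G2/M and mitosis were called lower with each shRNA, with medians of -1.28 and -1.58, and KIF11, CCNB2, CDK1 and CENPF had the firmest calls. In bulk RNA, fewer cells in a phase of the cycle and less mRNA per cell cannot be told apart.

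MCM2, a subunit of the replicative helicase that was itself called lower with each shRNA, was used as a reference within each library. Such a ratio restates the difference between 2 log2 fold changes. It cannot tell fewer cells in a phase from less mRNA per cell. No other licensing gene was used as the reference, and a ratio depends on that choice. The log2 fold changes of the 15 licensing genes ranged from -1.17 to 0.02 with shCENPA1 and from -1.83 to 0.12 with shCENPA2. UHRF1 over MCM2 was 0.187 and 0.184 with shNT, 0.195 and 0.165 with shCENPA1, and 0.178 and 0.178 with shCENPA2. HELLS over MCM2 was 0.327 and 0.382 with shNT, 0.321 and 0.308 with shCENPA1, and 0.275 and 0.354 with shCENPA2. For UHRF1 the shNT libraries thus lay within the range of the shCENPA1 libraries and just above those with shCENPA2. For HELLS 1 library with shCENPA2 lay between the shNT libraries, and the other knockdown libraries lay below both.
For the other 3 genes that were called, which fell less than MCM2, the ratio to MCM2 was higher in the knockdown libraries. EZH2 over MCM2 went from 0.598 and 0.734 with shNT to 0.765 to 1.01 in the knockdown libraries, and DNMT1 over MCM2 from 0.591 and 0.621 to 0.853 to 0.953. DNMT3B over MCM2 was 0.0791 and 0.0848 with shNT and 0.113 to 0.117 in the knockdown libraries. All knockdown libraries were above both shNT libraries for these 3 ratios. The part of the cell cycle in the changes of the 10 genes was not tested.

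**Figure D4:**
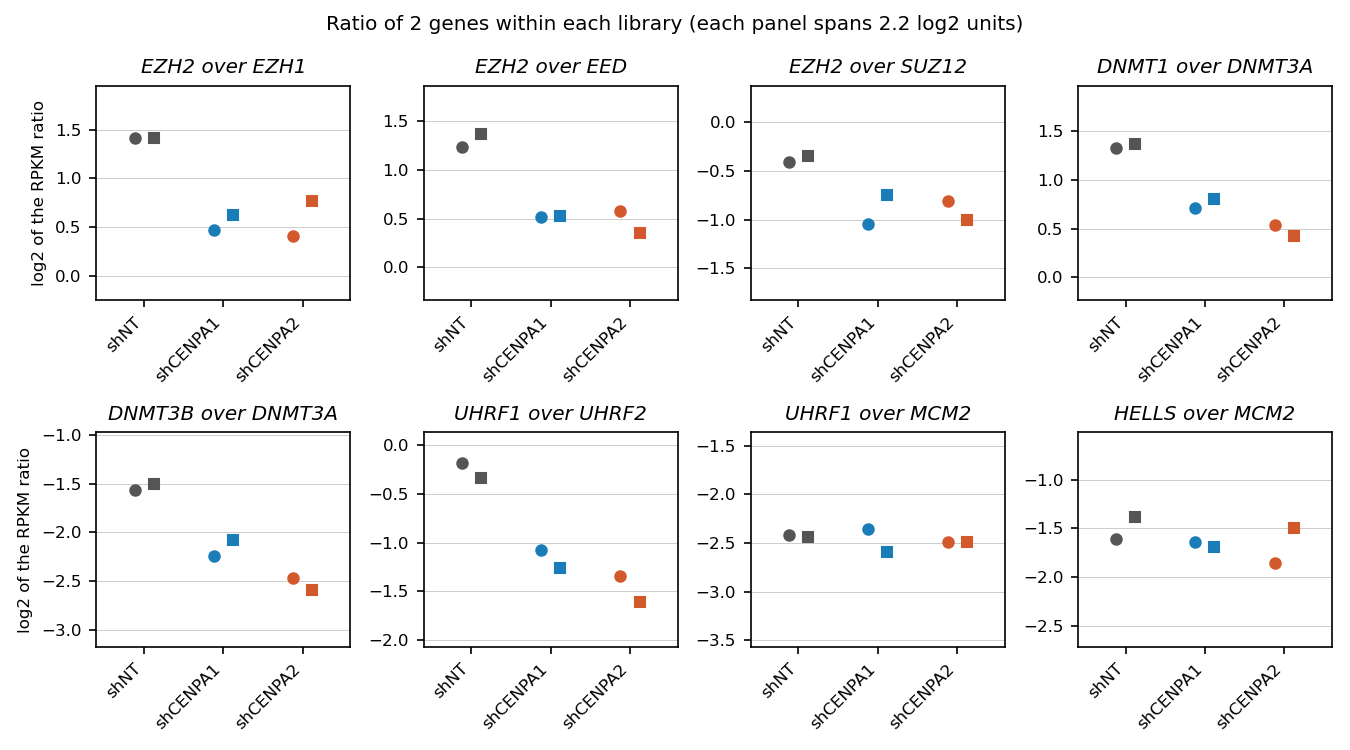
Ratio of RPKM of gene pairs within each library, as log2 on the vertical axis, in 8 panels that each span the same range, for shNT (grey), shCENPA1 (blue) and shCENPA2 (orange), with circles for library 1 and squares for library 2. The knockdown libraries lie below shNT for EZH2 over EZH1, EED or SUZ12, for DNMT1 and DNMT3B over DNMT3A and for UHRF1 over UHRF2. UHRF1 over MCM2 lies close together in all groups. For HELLS over MCM2, 1 library with shCENPA2 lies between the shNT libraries and the other knockdown libraries lie below both.

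Genes known to be silenced by these enzymes were looked at last. Of 9 listed genes that EZH2 is known to repress in prostate cancer, 6 were tested. With either shRNA 0 were called higher by limma, against 2.69% of all genes with shCENPA1 and 8.05% with shCENPA2. At an unadjusted p under 0.05, 0 were higher with shCENPA1 and 2, CDH1 and VASH1, with shCENPA2, against 10.7% and 15.3% of all genes. SLIT2 fell with shCENPA2, with a log2 fold change of -0.84 (limma adjusted p = 0.00753), and is named after its values were seen. CDKN2A had changes of 0.15 and 0.19, and CDH1 of 0.17 and 0.22, and neither passed the test.
Of 10 listed genes whose promoters are known to be methylated in prostate cancer, 4 were tested and 1, PTGS2, which encodes cyclooxygenase 2, was called higher with each shRNA, where 2.69% and 8.05% of all genes were. PTGS2 was at log2 RPKM -1.15 and -1.36 with shNT, 0.18 and 0.05 with shCENPA1, and 0.15 and 0.30 with shCENPA2. All knockdown libraries were above both shNT libraries, and the log2 fold changes were 1.37 and 1.48 (limma adjusted p = 0.00292 and 0.000886). APC, RASSF1 and RARB did not pass the test. Methylation of PTGS2 in these cells was not analysed here.
Of 14 listed germline genes that DNA methylation is known to silence, 4 were tested. With each shRNA 1 was called lower, against 4.45% and 10.5% of all genes. With shCENPA1 1 was called higher, against 2.69%, and with shCENPA2 0 were, against 8.05%. MAGEC2 fell with each shRNA, from 260 and 164 reads with shNT to 17 and 15 with shCENPA1 and 7 and 3 with shCENPA2. MAEL was called higher with shCENPA1 (log2 fold change 1.03, limma adjusted p = 0.0164) and was at 0.67 with shCENPA2 (adjusted p = 0.0504), and is named after its values were seen. MAGEA1 and MAGEA4, at mean log2 RPKM of 5.64 and 6.33 in shNT cells, did not pass the test. At an unadjusted p under 0.05 by limma MAGEA4 was higher with each shRNA, as 10.7% and 15.3% of all genes were.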

How the data were processed

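mRNA of 22Rv1 cells was measured in 12 runs, which are 2 lanes of each of 6 libraries. By the study's methods the authors used TrimGalore for trimming, STAR for alignment (hg38), HTSeq for gene counts and edgeR for testing, in versions not given in the sources used here, and they deposited log2 RPKM per run. Whether HTSeq counted by strand is not given in these sources either. The deposited log2 values hold a prior of 0.25 reads at the mean library, which draws fold changes of weakly expressed genes towards 0. Whole reads were recovered from their steps for 14828 of 14828 genes, within 2.9e-08 of a whole read, and gave the depth.

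Lanes were averaged. The 14624 genes whose mean log2 RPKM reached -3 entered one limma 3.58.1 fit (R 4.3.3, lmFit and eBayes with a variance trend) of 6 libraries in 3 groups, without covariates. A gene was called at a Benjamini-Hochberg adjusted p under 0.05. The fit was tested on simulated data. A ratio is the difference of 2 log2 values within a library. Gene positions are from GENCODE 44 (GRCh38), and promoters from RefSeq (GRCh38.p14).

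The 10 genes, the lists, the tests and the motifs were chosen with earlier results of these data known. Named beside the 10 genes and CENPA are the genes of each list called with both shRNAs, up to the 4 with the smallest larger adjusted p, and others said to be chosen after their values were seen, or named as uncalled members of a list. The 20 alternatives covered lanes, a replicate block, filters, constants, scalings, the trend, fits of 2 groups, voom on recovered reads and each library left out. Scaling to total reads was added after seeing the data. The values of some other genes of the lists are not reported here.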

Additional observations from a re-analysis of the deposited data

How the results depend on the processing

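The number of the 10 genes called lower was within 1.5 times 4 with shCENPA1 and 5 with shCENPA2 under the alternatives run, except that leaving out 1 library gave 2 to 4 genes with shCENPA1 (2 without library 2 of shNT or without library 2 of shCENPA1). With the lanes counted as 4 replicates of a group, 2 genes (JARID2 and DNMT3A) were called higher with shCENPA2 instead of 0, and 3 (DNMT1, UHRF1 and HELLS) were called between the shRNAs instead of 0. Lanes share a library, so that this setting takes technical spread for the spread between libraries. It also raised the calls over all genes from 651 lower and 393 higher to 2603 and 2802 with shCENPA1, from 1535 and 1177 to 3546 and 3543 with shCENPA2, and from 151 and 57 to 1841 and 1478 between the shRNAs. With 1 library left out, calls over all genes ranged from 292 to 857 lower and 103 to 553 higher with shCENPA1, from 869 to 1537 lower and 484 to 1144 higher with shCENPA2, and from 21 to 287 lower and 6 to 84 higher between the shRNAs, where voom gave 156 and 100. The labels' numbers did not pair the libraries (correlations of deviations -0.06, -0.10 and -0.15), and with a replicate block 4 and 5 of the 10 genes were again called lower. Changes of sign, all in values that did not pass the test, were these. EZH1 with shCENPA2 ranged from -0.15 to 0.33 with 1 library left out (-0.02 without library 1 of shNT), and between the shRNAs from -0.29 to 0.19. JARID2 with shCENPA1 ranged from -0.0199 to 0.30. Between the shRNAs, EZH2 was 0.0382 in lane 8, 0.0024 after quantile normalization, 0.0171 with voom and 0.0216 scaled to total reads, and -0.0635 to 0.0520 with 1 library left out, and SUZ12 was -0.0115 in lane 8 and -0.10 to 0.12. The cause was not tested. The values rest on 2 libraries per group, and a value without 1 library rests on a single one in that group.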
